A study of Rattus norvegicus with 19 samples.

Results

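The genes described here are the proteases and receptors that mark mast cells: the tryptases Tpsab1 and Tpsb2, carboxypeptidase A3 (Cpa3), the chymases Cma1 and Mcpt2, the histamine-making enzyme Hdc, the IgE receptor chains Fcer1a and Ms4a2, and the stem cell factor receptor Kit. They were chosen by name, with earlier results of these data known. A probe was assigned to a gene when its accession mapped to that rat RefSeq symbol. Of the 9 genes listed, 8 were found, through 9 probes, and all 8 passed the filter on dim signals, among 22664 genes tested. The gene table had no entry under the symbol Mcpt2. Its older names for rat mast cell protease II stand with the gene listed as Mcpt1, so Mcpt1 is shown beside the others and is not counted as one of them.

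Thymus RNA of Wistar rats, all female and, per the labels, 7 weeks old, was measured on 19 one-colour Agilent arrays. The rats had received a liquid by gavage, that is through a tube into the stomach, once daily for 14 days. The control group received normal saline at 10 ml/kg (5 arrays), and the other groups received corn oil at 2 ml/kg (5 arrays), 5 ml/kg (4 arrays) or 10 ml/kg (5 arrays), a plant oil often used to dissolve test compounds. The labels state 6 animals per group and 3 rats per cage, give no cage for an array and do not say which animal each array came from, so the arrays were taken as separate animals. If they were not, the p-values measure only the spread between these arrays. Saline was given at the highest volume only, so only the comparison at 10 ml/kg matched the volume of the liquid.

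Mast cells are long-lived cells of connective tissue and mucosa that arise from bone marrow progenitors and depend on stem cell factor acting through Kit. They store tryptases, chymases, carboxypeptidase A3 and histamine bound to proteoglycan in granules, and release them when antigen cross-links IgE on the high-affinity receptor, whose alpha chain (Fcer1a) binds IgE and whose beta chain (Ms4a2) amplifies the signal. In the thymus they lie mostly in the capsule, the septa and around vessels. Kit also marks early thymocyte progenitors and Hdc, Fcer1a and Ms4a2 are also expressed by basophils, so these genes do not mark mast cells alone. How specific the proteases are in the thymus was not tested.

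Promoter sequences are shown for the genes the results turn on: both tryptases, the pair of granule proteases whose levels ran most alike, and Kit, which did not run with the others. Each is the 250 bases before the RefSeq transcription start in build GRCr8, 5′ to 3′ on the gene's own strand, with the letters GATAA (the core bound by GATA factors) and CATGTG (an E-box form bound by MITF) in capitals, on either strand, so that TTATC and CACATG mark the opposite strand.
Tpsab1 promoter, chr10:14867303-14867552, minus strand: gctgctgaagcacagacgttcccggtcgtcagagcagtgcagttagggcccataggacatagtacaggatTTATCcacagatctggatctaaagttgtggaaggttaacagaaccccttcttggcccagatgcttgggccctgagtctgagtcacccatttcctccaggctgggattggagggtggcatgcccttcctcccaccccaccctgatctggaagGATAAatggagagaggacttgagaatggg
Tpsb2 promoter, chr10:14886060-14886309, plus strand: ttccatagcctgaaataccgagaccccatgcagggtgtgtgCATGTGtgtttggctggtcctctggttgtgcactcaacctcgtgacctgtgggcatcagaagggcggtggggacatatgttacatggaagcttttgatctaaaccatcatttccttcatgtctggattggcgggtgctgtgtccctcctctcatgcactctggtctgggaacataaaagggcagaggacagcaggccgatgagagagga
Cpa3 promoter, chr2:104673238-104673487, minus strand: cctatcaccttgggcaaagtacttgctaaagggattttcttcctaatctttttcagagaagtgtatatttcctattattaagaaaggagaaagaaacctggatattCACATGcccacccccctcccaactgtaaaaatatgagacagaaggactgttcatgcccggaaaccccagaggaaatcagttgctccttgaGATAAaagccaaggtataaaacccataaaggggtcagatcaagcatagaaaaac
Cma1 promoter, chr15:33390134-33390383, minus strand: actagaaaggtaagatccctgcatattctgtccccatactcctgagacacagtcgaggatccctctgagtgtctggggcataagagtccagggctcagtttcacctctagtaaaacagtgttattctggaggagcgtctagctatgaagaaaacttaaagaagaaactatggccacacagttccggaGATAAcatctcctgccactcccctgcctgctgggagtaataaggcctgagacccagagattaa
Kit promoter, chr14:32978813-32979062, minus strand: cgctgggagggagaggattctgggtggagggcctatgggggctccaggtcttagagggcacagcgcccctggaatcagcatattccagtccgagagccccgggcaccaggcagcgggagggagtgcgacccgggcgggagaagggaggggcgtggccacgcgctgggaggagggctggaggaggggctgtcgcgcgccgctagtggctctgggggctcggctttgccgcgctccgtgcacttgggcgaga

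The Tpsab1 window held 2 GATAA matches, with first bases 180 and 29 bases before the start on the minus and plus strand of the gene. Cpa3 held 1 match 54 bases and Cma1 1 match 63 bases before the start, both on the plus strand, and Tpsb2 and Kit held none. CATGTG lay 209 bases before the start of Tpsb2 and, on the opposite strand, 144 bases before that of Cpa3. Among the promoters not printed, Fcer1a held 1 match of each motif and Mcpt1 1 match of GATAA, whereas Hdc held neither. In all, 5 of these 8 windows held GATAA and 3 held CATGTG, against 23.5% and 12.1% of 33469 promoter windows of the same length. CACGTG, the other E-box form searched, was in 0 of the 8 windows and in 5.59% of all, and TATAAA was in 3 (Cpa3, Fcer1a and Mcpt1) and in 12.9% of all. Ms4a2 is named only. These matches describe the letters and say nothing of binding. In the gene table Tpsab1 and Tpsb2 were direct neighbours on chromosome 10, and Cma1 and Mcpt1 both lay on chromosome 15 with 22 genes between them.

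Levels are given as log2 of the processed spot intensity relative to the 75th percentile of the array. A value of 0 is as bright as that percentile, and 1 unit is a factor of 2. Levels of different genes are not compared, because probes differ in brightness. Differences were tested with limma over all genes and 4 groups, with Benjamini-Hochberg adjusted p-values and a threshold of 0.05, and a difference past it is said to have passed the test. The arrays lay on 5 slides, each holding at most 2 groups. No slide held both 10 and 2 ml/kg arrays, or both 5 ml/kg and saline arrays. With slide as a block those comparisons therefore run only through the other groups, and without it group and slide cannot be told apart in them. The correlation within slides was 0.51 when slide was a random block. For genes that passed, the text therefore also gives the value with slide as a block, or says whether they still passed.

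The share of spots well above background was 69.7% to 88.4%, and the intensity at the 75th percentile ranged from 1852 to 2954. Against saline, 1436 of 22664 genes (6.34%) passed at 10 ml/kg, 634 higher and 802 lower; with slide as a block 454 (2%) passed. After quantile normalization 73.3% of the genes that passed were higher, so this split depends on the scaling. The median difference of all genes was -0.13 in that comparison, 0.06 after quantile normalization and 0.09 after normexp background correction. At 5 and at 2 ml/kg against saline limma called 0 genes, with 1878 (8.29%) and 209 (0.922%) at an unadjusted p under 0.05. All 9 thymocyte markers that could be matched, among them Cd3e, Cd4, Cd8a and Rag1, were well above background on all 19 arrays. In the mast cell genes 2 arrays stood apart: 5 ml/kg replicate 1 had the lowest level of all 19 arrays in 6 of the 8, against 1255 of all genes (5.54%), and saline replicate 2 had high levels of the proteases. The latter also had the highest summed level of fibroblast markers among the saline arrays (18.1, the others at most 10.3) and of adipocyte markers (31.9, the others at most 8.95), and the lowest of granulocyte markers (3.78); the part of these cells was not tested. Both arrays are kept, and values without them are given where they matter.

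**Figure D1:**
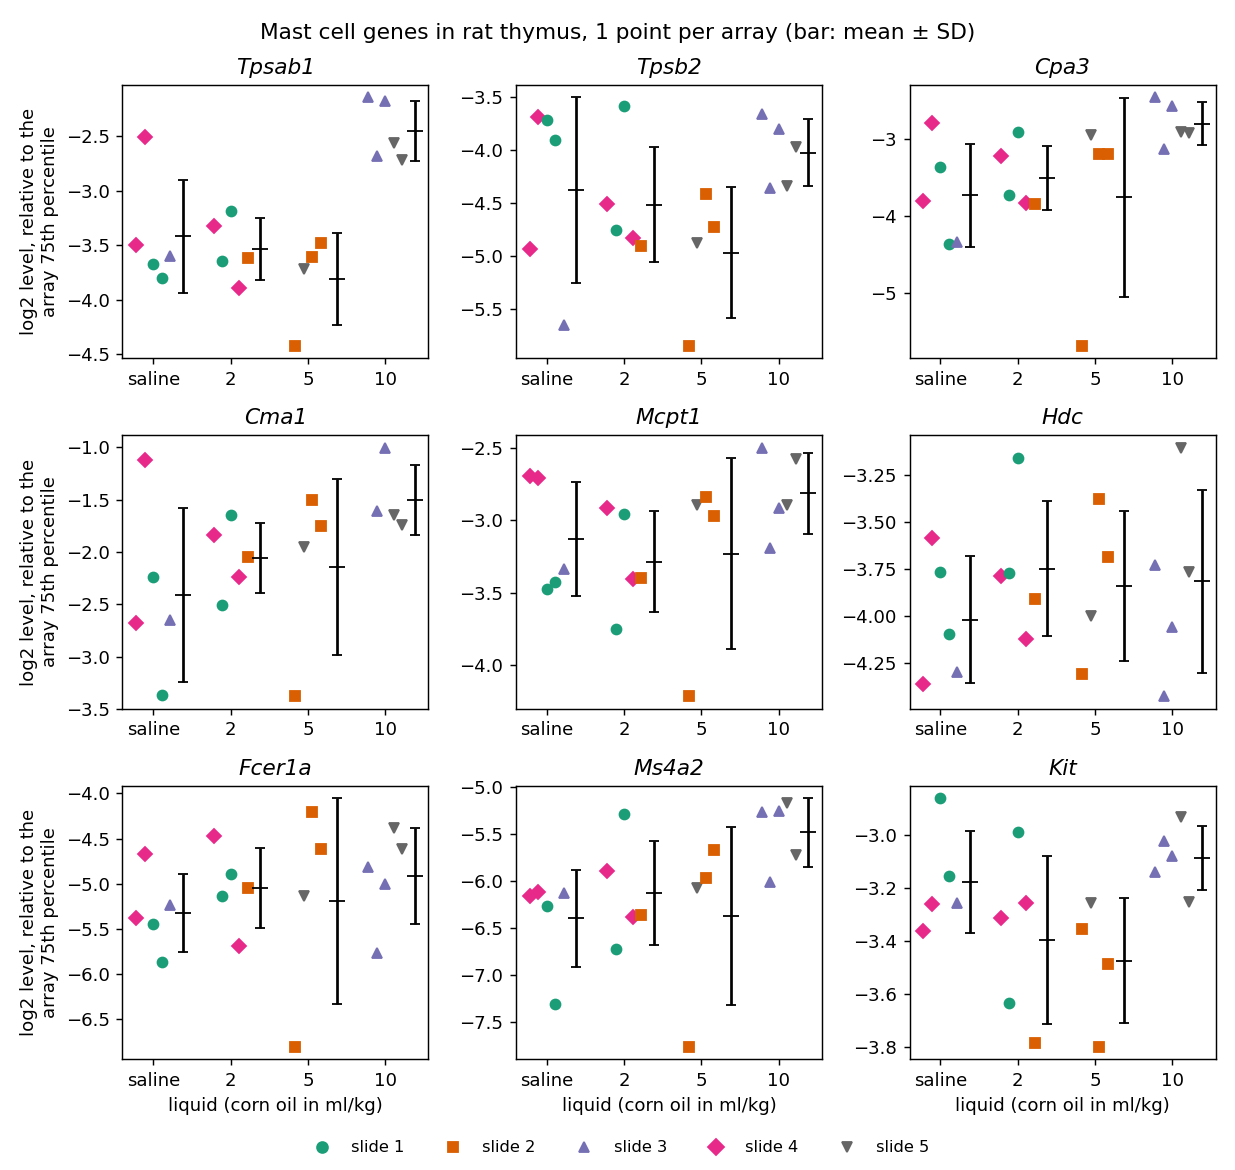
Level of each mast cell gene in each of the 19 arrays, as log2 relative to the 75th percentile of the array, against the liquid given (saline, or corn oil in ml/kg). Each point is 1 array, its shape and colour give the slide, and bars show the mean ± SD of the group; the 5 arrays at 10 ml/kg lie at -2.71 or higher for Tpsab1, and 5 ml/kg replicate 1 lies lowest in 6 of the 8 genes and in Mcpt1.

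In the thymus of rats given corn oil at 10 ml/kg, 7 of the 8 mast cell genes had a higher mean than with saline on every probe, the probes of Fcer1a disagreed, and the tryptase Tpsab1 was the only one whose difference passed the test. With the tested probe of Fcer1a, which all counts of the 8 genes below use, the median difference of the 8 genes was 0.66, against -0.13 over all genes. It was 0.36 with dim values held at the lowest signal well above background of their array (all genes -0.18) and 0.999 after quantile normalization (all genes 0.06). Of all genes, 35.5% had a positive difference and 2.8% were called higher, so 1 of 8 called stands beside a background of 2.8%. When slide was added as a block, all 8 differences were positive (median 0.88) and none passed (lowest adjusted p 0.186), where 2% of all genes did.

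Tpsab1 encodes tryptase, the trypsin-like protease that is a main protein of mast cell granules. Its level was -3.50, -2.51, -3.67, -3.80 and -3.60 in saline replicates 1 to 5 and -3.32, -3.65, -3.19, -3.89 and -3.62 in replicates 1 to 5 at 2 ml/kg. It was -4.42, -3.72, -3.61 and -3.48 at 5 ml/kg and -2.15, -2.68, -2.17, -2.56 and -2.71 at 10 ml/kg. The arrays at 10 ml/kg were thus above every other array except saline replicate 2, which lay within their range. The group means were -3.42 ± 0.52 (SD, n = 5) for saline and, from the lowest volume of oil to the highest, -3.53 ± 0.28 (n = 5), -3.81 ± 0.42 (n = 4) and -2.45 ± 0.28 (n = 5). Against saline the level at 10 ml/kg was higher by 0.96 ± 0.24 (SE; 95% interval 0.46 to 1.46), or 1.95-fold, with limma's adjusted p 0.0215. It was higher by 1.35 ± 0.25 (2.55-fold, adjusted p 0.00366) than at 5 ml/kg and by 1.08 ± 0.24 (2.11-fold, adjusted p 0.00915) than at 2 ml/kg in limma's fit, and these 3 comparisons share the 10 ml/kg arrays. With slide as a block the differences were 1.11, 1.25 and 1.19, and limma's adjusted p was 0.186, 0.209 and 0.219, so no call held. The call against saline was also lost when saline replicate 3 (adjusted p 0.0605), saline replicate 4 (0.0608), 10 ml/kg replicate 1 (0.0580) or 10 ml/kg replicate 3 (0.0615) was left out of limma's fit, with differences of 0.87 to 0.90. Across all settings run the adjusted p in that comparison lay between 0.000402, in a setting that leaves out saline replicate 2 and was chosen from these levels, and 0.186.

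Tpsb2, the neighbouring tryptase gene, did not pass in any of the 6 comparisons. Its levels were -4.93, -3.69, -3.71, -3.90 and -5.65 with saline and -4.51, -4.75, -3.58, -4.83 and -4.90 at 2 ml/kg. They were -5.85, -4.88, -4.42 and -4.73 at 5 ml/kg and -3.66, -4.36, -3.80, -4.34 and -3.97 at 10 ml/kg. The saline arrays fell apart, with 3 as high as those at 10 ml/kg and 2 well under them, whereas all 4 arrays at 5 ml/kg lay below all 5 at 10 ml/kg. The difference at 10 ml/kg was 0.35 ± 0.38 (SE) against saline, with limma's adjusted p 0.547; the slide block gave 1.30 (adjusted p 0.250). Against 5 ml/kg it was 0.94 ± 0.40 (adjusted p 0.151 in limma). Against 2 ml/kg it was 0.49 ± 0.38 (limma's adjusted p 0.338), and 0.99 after quantile normalization, where it passed (limma's adjusted p 0.0499). The tryptase genes are close copies of each other, and whether either probe also binds the other transcript was not tested.

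Cpa3, the zinc carboxypeptidase that is stored with chymase, and Cma1, a chymase, showed a wide spread. Cpa3 was at -3.81, -2.79, -3.37, -4.36 and -4.33 with saline and at -3.22, -3.73, -2.91, -3.83 and -3.84 at 2 ml/kg. At 5 ml/kg it was at -5.68, -2.95, -3.20 and -3.20, and at 10 ml/kg at -2.46, -3.13, -2.58, -2.91 and -2.93. The groups overlapped, and 5 ml/kg replicate 1 lay far under the other 3 arrays of its group. The difference of Cpa3 at 10 ml/kg against saline was 0.93 ± 0.44 (SE, 1.91-fold, limma's adjusted p 0.185). For Cma1 the levels were -2.68, -1.12, -2.24, -3.37 and -2.65 with saline and -1.84, -2.51, -1.65, -2.24 and -2.05 at 2 ml/kg. They were -3.38, -1.95, -1.50 and -1.75 at 5 ml/kg and -1.61, -1.003, -1.64 and -1.74 in replicates 2 to 5 at 10 ml/kg, the spot of replicate 1 having been marked as an outlier by the scanner software and left out. Saline replicate 2 was again as high as the arrays at 10 ml/kg. The difference of Cma1 against saline was 0.91 ± 0.41 (SE, n = 4 and 5, 1.88-fold), and limma's adjusted p was 0.170. Without saline replicate 2 and 5 ml/kg replicate 1 the differences against saline were 1.17 for Cpa3 and 1.24 for Cma1 and passed (limma's adjusted p 0.00935 and 0.00944); these arrays were picked from the levels of these very genes, so this is no support for a difference.

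Mcpt1, a chymase-like protease, lay between -3.48 and -2.70 with saline, between -3.75 and -2.92 at 2 ml/kg and between -3.19 and -2.50 at 10 ml/kg. At 5 ml/kg replicate 1 was at -4.22 and the other 3 arrays were at -2.97 or above. Its difference at 10 ml/kg against saline was 0.31 ± 0.26 (SE), with limma's adjusted p 0.430.

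Hdc, histidine decarboxylase, makes histamine from histidine and was the gene of the 8 whose group means lay closest together. Its group means were -4.02 ± 0.34 (SD, n = 5) with saline and, in order of rising volume of oil, -3.75 ± 0.36 (n = 5), -3.84 ± 0.40 (n = 4) and -3.82 ± 0.49 (n = 5). The 10 ml/kg group held both the lowest value (-4.43) and the highest (-3.10) of all 19 arrays. The difference at 10 ml/kg was 0.20 ± 0.24 (SE; 95% interval -0.31 to 0.72) against saline, with limma's adjusted p 0.595, and -0.07 against 2 ml/kg; the latter turned positive (0.26) with slide as a block.

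Of the IgE receptor genes, Ms4a2 encodes the beta chain. It was dim, and its probe was well above background on 3 of 5 arrays with saline, on 4 of 5, 3 of 4 and 5 of 5 with rising volumes of oil. Its levels were -6.17, -6.12, -6.27, -7.31 and -6.13 with saline and -5.90, -6.73, -5.30, -6.38 and -6.37 at 2 ml/kg. They were -7.77, -6.08, -5.97 and -5.67 at 5 ml/kg and -5.27, -6.01, -5.25, -5.17 and -5.73 at 10 ml/kg. As measured, each array at 10 ml/kg lay above each saline array, as in 2.25% of all genes. This rests on saline replicates 3 and 4, which were not well above background (intensities of 29.4 and 18.6, where the lowest signal well above background on their arrays was 49.1 and 73.3). Held at those signals, both lie above replicates 2 and 5 at 10 ml/kg, so the groups then overlap. The difference against saline was 0.91 ± 0.37 (SE, limma's adjusted p 0.136) as measured and 0.37 with dim values held in this way (limma's adjusted p 0.446). Fcer1a, the chain that binds IgE, had 2 probes of nearly the same mean brightness that disagreed. The probe with the higher mean over the 19 arrays, which was the one tested, gave group means of -5.32 with saline and -5.05, -5.19 and -4.92 with rising volumes of oil, and a difference of 0.41 ± 0.40 (SE) at 10 ml/kg against saline, limma's adjusted p 0.511. The other probe gave -5.01, -4.76, -5.55 and -5.23 for the same groups and a difference of -0.22, so no direction can be given for Fcer1a.

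Kit, the receptor tyrosine kinase for stem cell factor, had the smallest difference of the 8 genes at 10 ml/kg against saline. Its levels were -3.36, -3.26, -2.86, -3.16 and -3.26 with saline and -3.31, -3.63, -2.99, -3.26 and -3.79 at 2 ml/kg. They were -3.35, -3.26, -3.80 and -3.49 at 5 ml/kg and -3.14, -3.02, -3.08, -2.93 and -3.25 at 10 ml/kg. The saline arrays lay on both sides of the narrow range at 10 ml/kg, and the highest array at 5 ml/kg lay just under that range. The difference at 10 ml/kg was 0.09 ± 0.14 (SE; 95% interval -0.21 to 0.40) against saline, 0.39 ± 0.15 against 5 ml/kg and 0.31 ± 0.14 against 2 ml/kg, with limma's adjusted p 0.686, 0.123 and 0.129. Against saline it was -0.30 at 5 ml/kg and -0.22 at 2 ml/kg, and neither passed. After quantile normalization the difference against 2 ml/kg was 0.67 and passed (limma's adjusted p 0.0115).

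**Figure D2:**
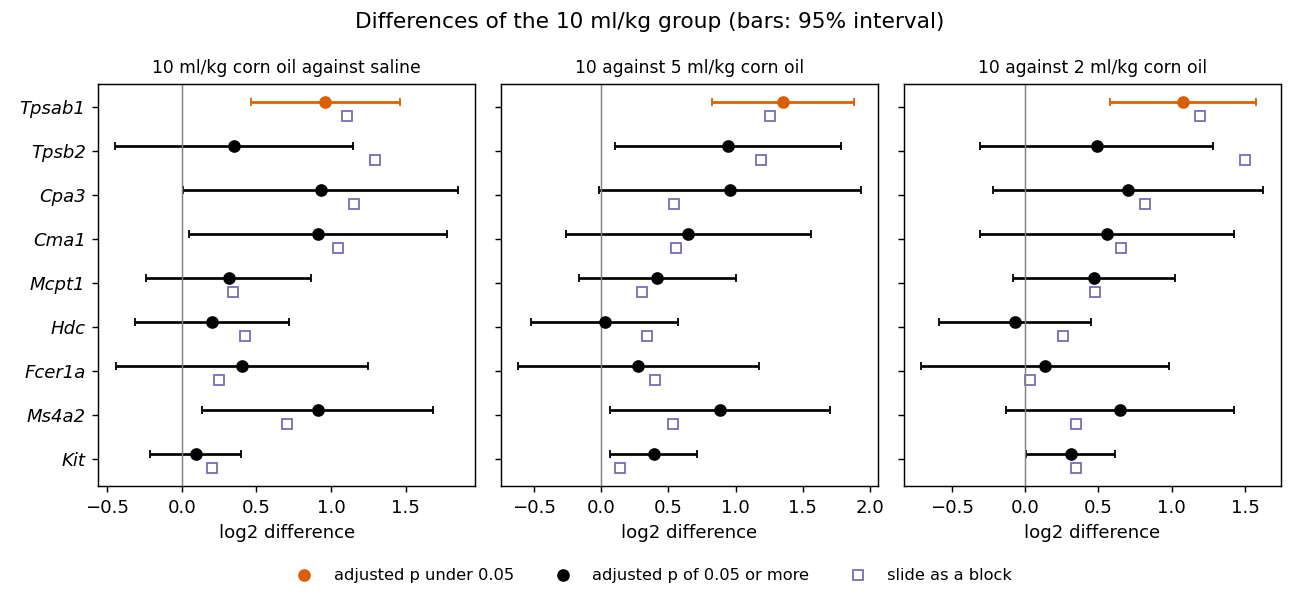
Differences of the 10 ml/kg group in log2 units against saline, 5 ml/kg and 2 ml/kg corn oil, 1 row per gene. Filled points are limma estimates with 95% intervals, orange where the adjusted p is under 0.05, and open squares are the estimates with slide as a block; Tpsab1 alone is orange, with differences of 0.96, 1.35 and 1.08.

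Whether the median of the 8 genes rose in order of the volume of oil depended on 5 ml/kg replicate 1 and on the normalization. At 5 ml/kg against saline 4 of the 8 differences were positive (47.9% of all genes), with a median of 0.00 and a range of -0.59 to 0.26. At 2 ml/kg against saline 5 were positive (63.5% of all genes), with a median of 0.25 and a range of -0.22 to 0.35. None of the 8 genes passed in either comparison, and none at 5 against 2 ml/kg, where all 8 differences were negative (median -0.19). In that comparison 42.4% of all genes had a positive difference, and limma called 0 genes (1926, or 8.5%, at an unadjusted p under 0.05) and 1 gene (0.00441%) with slide as a block. The negative direction also rested on 5 ml/kg replicate 1: without it 5 of the 8 were positive (median 0.14), as were 4 with slide as a block (median 0.02) and 5 after quantile normalization (median 0.08). Without 5 ml/kg replicate 1 the medians against saline were 0.25, 0.41 and 0.66 at 2, 5 and 10 ml/kg, in order of volume, and without saline replicate 2 as well they were 0.36, 0.50 and 0.78. After quantile normalization of all arrays they were 0.14, 0.24 and 0.999. The arrays left out were picked from the levels of these genes, and the order was not tested. Between oil groups, all 8 differences of 10 against 5 ml/kg were positive (median 0.77, all genes -0.11) and 7 of 8 of 10 against 2 ml/kg (median 0.52, all genes -0.19), as were 37.5% and 33.1% of all genes. Without 5 ml/kg replicate 1, 6 of 8 were positive at 10 against 5 ml/kg and the median was 0.37. Tpsab1 was the 1 gene of the 8 called in each. Of all genes, 7.94% and 12.5% were called in these comparisons, 3.53% and 3.69% higher, and 1.2% and 1.23% with slide as a block, where 0 of the 8 were. All arrays at 10 ml/kg lay above all at 5 ml/kg for Tpsab1, Tpsb2 and Kit, and above all at 2 ml/kg for Tpsab1. The same held for 5.16% and 3.75% of all genes, and in a further 6.19% and 6.56% all arrays at 10 ml/kg lay below.

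Arrays of the same slide can be compared without a slide difference, but with few arrays and no test. On slide 3, which held saline replicate 5 and 10 ml/kg replicates 1 to 3, all 8 genes were higher at 10 ml/kg, with a median difference of 0.94 against -0.06 over all genes. The granule proteases differed most there, Tpsb2 by 1.71, Cpa3 by 1.61, Cma1 by 1.34 and Tpsab1 by 1.27, and Fcer1a by 0.04. Slide 5 held replicate 2 of the 5 ml/kg group and replicates 4 and 5 of the 10 ml/kg group, and there all 8 were higher at 10 ml/kg, with a median of 0.60 (all genes 0.02); Tpsab1 differed by 1.08 and Cpa3 by 0.03. Both contrasts rest on a single array of the lower group. On slide 3 this was saline replicate 5, the lowest saline array for Tpsb2 (-5.65) and near the lowest for Cpa3 (-4.33). For Tpsab1 (-3.60) and Cma1 (-2.65) it lay within the range of the other saline arrays. Of 42877 spots on an array, 590, 442 and 589 were flagged non-uniform in 10 ml/kg replicates 1 to 3 and 173 in saline replicate 5. The arrays of the other slides had 6 to 62. Flagged spots were left out, and whether this bears on the slide 3 contrast was not tested. The contrasts without 10 ml/kg arrays went either way: 2 ml/kg minus saline had a median of 0.51 on slide 1 (6 of 8 positive) and -0.10 on slide 4 (2 of 8), the latter with saline replicate 2 among its arrays, and 5 minus 2 ml/kg had -0.13 on slide 2 (2 of 8), with 5 ml/kg replicate 1 among its arrays.

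**Figure D3:**
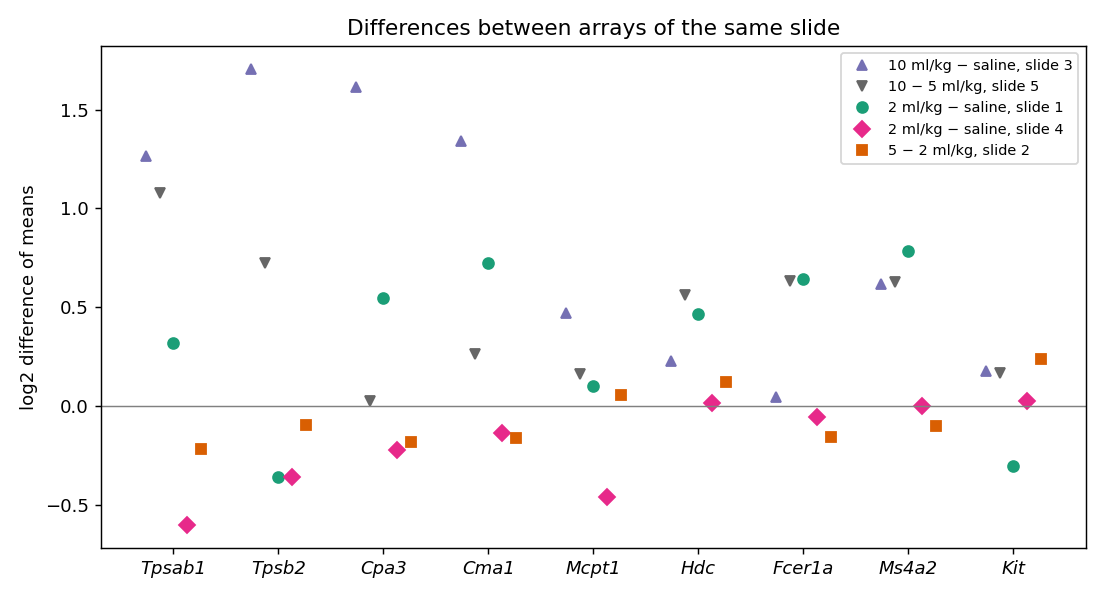
Differences between group means of arrays on the same slide, in log2 units, for each mast cell gene. Each marker is 1 slide and its contrast, from 1 to 3 arrays on each side; the 10 ml/kg contrasts (slides 3 and 5) lie above 0 for all genes, from 0.03 to 1.71, and the others lie on both sides.

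The mast cell genes varied together from array to array, apart from Kit, though genes outside the list ran closer to Tpsab1 than any of them. With the mean of each slide taken out, the 21 pairs among the other 7 genes had correlations across the 19 arrays of 0.57 to 0.95 (median 0.80), whereas the 7 pairs with Kit had -0.28 to 0.24 (median 0.11). Without saline replicate 2 and 5 ml/kg replicate 1 these ranges were 0.35 to 0.94 (median 0.70) and -0.01 to 0.50 (median 0.34). Points of a pair share an array and its scaling, and group differences are still in them, so these are descriptions. Cpa3 and Cma1 ran most alike, with 0.949 over the 18 arrays that measured both. The 12216 genes with a RefSeq symbol and complete values were ranked by likeness, and genes without a symbol were not. Those most like Tpsab1 were C5ar1 (the C5a receptor, 0.933), Ube2e2, Scube1, Pdgfrb (a receptor of pericytes and fibroblasts, 0.907) and Ap4s1. Those most like Cpa3 were Col3a1 (a fibrillar collagen, 0.876), Lum (lumican, a proteoglycan of collagen fibres, 0.869), F13a1, Ppic and Ms4a2 (0.858). Those most like Kit were Vom1r76 (0.789), Slco1b2, Apbb1, Slc6a2 and Styxl1. By likeness to Tpsab1, Tpsb2 ranked 25, Cpa3 149, Hdc 296, Ms4a2 461, Fcer1a 630 and Kit 4825. By likeness to Cpa3, Ms4a2 ranked 5, Tpsb2 12, Fcer1a 15, Tpsab1 35, Hdc 99 and Kit 6676. Cma1, which lacked a value on 1 array, was not ranked.

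Other genes of mast cell function mostly did not pass. For these lists, the share of all genes with a positive difference at 10 ml/kg was 35.5% against saline, 37.5% against 5 ml/kg and 33.1% against 2 ml/kg. The share that passed in either direction was 6.34%, 7.94% and 12.5%. Of 13 tested genes for granule proteins of mast cells and basophils, Mcpt1 included, 10 had a positive difference at 10 ml/kg against saline (median 0.31) and 1 passed. This was Srgn, serglycin, the proteoglycan core that holds granule proteases in many blood cells, higher by 0.61 ± 0.14 (SE, limma's adjusted p 0.0134). It was also higher than at 5 ml/kg (0.92, limma's adjusted p 0.00115) and at 2 ml/kg (0.68, 0.00576), and with slide as a block the adjusted p was 0.409, 0.116 and 0.424. The basophil protease gene Prss34 was lower at 10 than at 2 ml/kg by 1.06 on the log2 scale (a difference of -1.06, limma's adjusted p 0.0369; 0.309 under the slide block). Of 14 genes that carry the signal of the IgE receptor, 0 passed against saline (9 positive, median 0.02; limma). Lat2, an adaptor of that pathway also used by B cells and myeloid cells, was higher than at 5 ml/kg (0.58, limma's adjusted p 0.0347) and than at 2 ml/kg (0.52, 0.0361), with 0.620 and 0.392 under the slide block. Of 14 growth and identity genes, which include the Kit ligand Kitlg and the transcription factor gene Gata2, 0 passed in the 3 comparisons with 10 ml/kg (6, 9 and 7 positive against saline, 5 and 2 ml/kg; limma). Kitlg differed by -0.09 ± 0.11 (SE) and Gata2 by -0.65 ± 0.48 against saline.

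Of 11 lipid mediator genes, 5 had a positive difference at 10 ml/kg against saline (median -0.02) and 2 passed, in opposite directions. Alox5ap, the protein that presents arachidonic acid to 5-lipoxygenase, was higher by 0.67 ± 0.14 (SE, limma's adjusted p 0.00765) than with saline, by 0.71 (0.00807) than at 5 ml/kg and by 0.61 (0.0113) than at 2 ml/kg. Ptgs1, cyclooxygenase 1, was lower than with saline (difference -0.32, limma's adjusted p 0.0342) and than at 2 ml/kg (-0.43, 0.00490). Under the slide block the adjusted p of Alox5ap was 0.0764, 0.0642 and 0.124 and that of Ptgs1 was 0.206 and 0.144. Of 6 genes for histamine receptors and amine handling, 0 passed in these comparisons (3 positive in each; limma). Of 7 early progenitor genes, which can be read beside Kit, Cd44 passed at 10 against 2 ml/kg (0.32, limma's adjusted p 0.0415; 0.421 under the slide block) and the rest did not (4 of 7 positive against saline, median 0.01).

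Markers of other cells moved with the 10 ml/kg group as well, in lists that were also chosen with earlier results of these data known. Of all genes, 35.5% had a positive difference at 10 ml/kg against saline and 2.8% were called higher. All 9 granulocyte markers had a positive difference against saline (median 1.27), and 3 passed: Lcn2, lipocalin 2, by 4.80 ± 0.21 (SE, limma's adjusted p 1.4e-10), Prg2, an eosinophil granule protein, by 1.51 and S100a9, a calprotectin subunit, by 1.12. With slide as a block Lcn2 alone passed. Their summed level, relative to the 75th percentile, was 3.78 to 10.2 with saline and 11.8 to 23.6 at 10 ml/kg. Of 10 fibroblast and capsule markers, 9 were positive (median 0.46) and 4 passed: Tagln (0.90), Col1a1 (1.32), Pdgfrb (0.72) and Col3a1 (1.04), with limma's adjusted p 0.0117, 0.0141, 0.0238 and 0.0410. Under the slide block Tagln alone passed, by 1.10 (limma's adjusted p 0.0197). The summed fibroblast level was 7.81 to 18.1 with saline, 13.4 to 20.1 at 10 ml/kg and 7.59 in 5 ml/kg replicate 1, the array that was lowest in most mast cell genes. By the median deviation of a list from its 19-array mean, that array was also the lowest in several other lists. These were the other granule genes (-0.57), growth and identity (-0.59), lipid mediator (-0.51) and early progenitor genes (-0.29). It was not the lowest in the remaining lists, and lay above 0 for adipocyte (0.99) and thymocyte (0.17) markers. Of the granulocyte and fibroblast markers, 6 granulocyte markers and all 10 fibroblast markers were well above background on all 19 arrays, and none was below it on every array. Against 5 ml/kg all 9 granulocyte and all 10 fibroblast markers had a positive difference. Of these, 3 granulocyte markers (Lcn2, Elane and Prg2) and 2 fibroblast markers (Tagln and Pdgfrb) passed. Against 2 ml/kg 9 of 9 and 9 of 10 were positive, and 5 (Lcn2, Prg2, Elane, S100a9 and Camp) and the same 2 passed. Of all genes, 37.5% and 33.1% were positive against 5 and 2 ml/kg, and 3.53% and 3.69% were called higher. With slide as a block Lcn2 and Tagln alone passed in both comparisons. The part of these cells in the mast cell gene result was not tested. In bulk tissue more mast cells and more RNA per cell cannot be told apart.

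Of the remaining lists, 9 adipocyte markers had 4 positive differences at 10 ml/kg against saline and 0 passed in limma's fit. Against 5 and against 2 ml/kg 0 of the 9 were positive, with medians of -1.92 and -1.30. Of these differences only that of Lpl against 5 ml/kg passed (-1.92, limma's adjusted p 0.0447). Of 9 thymocyte markers 1 was positive and 0 passed against saline (median -0.16), and Dntt was higher than at 5 ml/kg (0.63, limma's adjusted p 0.0395). For macrophage markers 2 of 10 were positive and 0 passed, and of 3 parathyroid markers 2 were positive and Casr passed at 10 against 5 ml/kg (0.71, limma's adjusted p 0.0404). Under the slide block none of Lpl, Dntt and Casr passed.

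**Figure D4:**
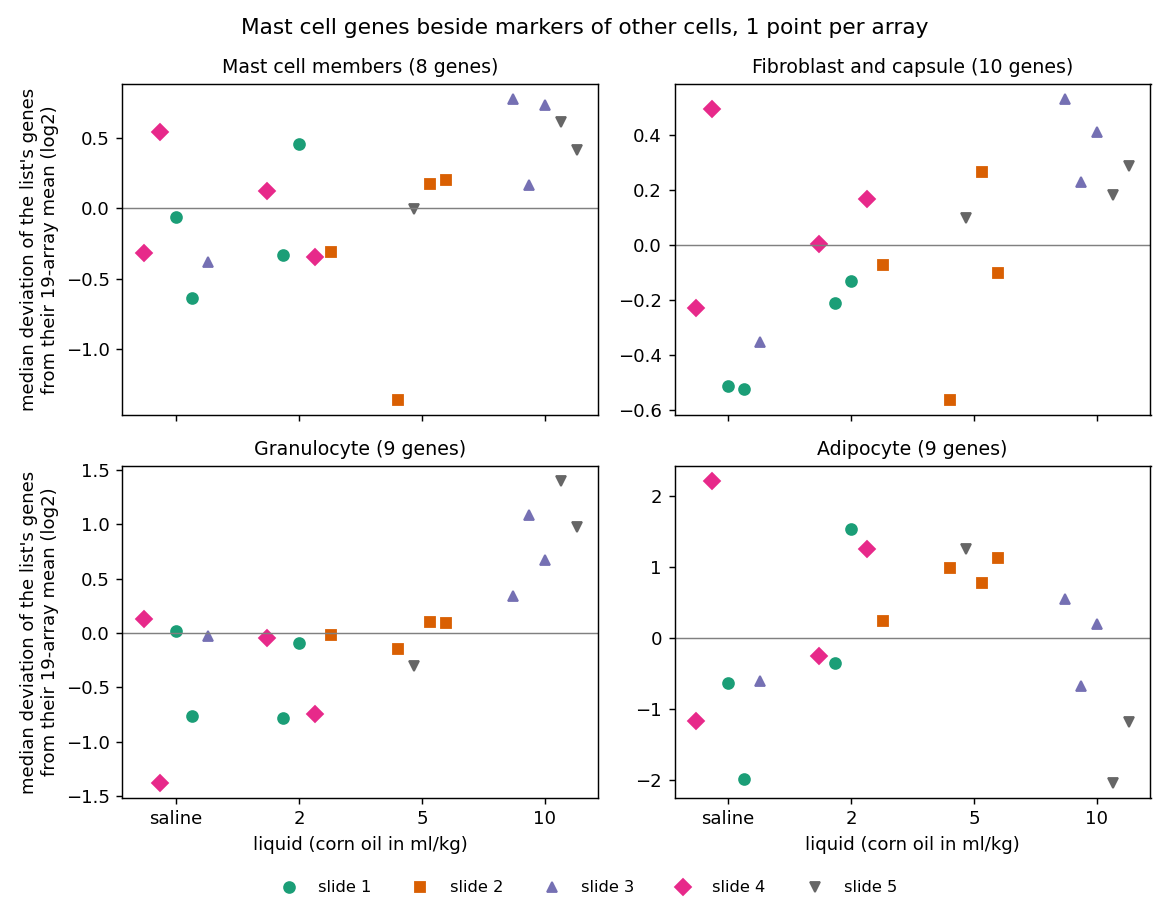
Median deviation of the genes of a list from their mean over the 19 arrays, in log2 units, for mast cell genes and markers of fibroblasts, granulocytes and adipocytes, against the liquid given. Each point is 1 array and its shape gives the slide; the arrays at 10 ml/kg lie above 0 for the mast cell, fibroblast and granulocyte lists, and 5 ml/kg replicate 1 is lowest for the mast cell (-1.37) and fibroblast (-0.57) lists.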

How the data were processed

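Thymus RNA was measured on 19 one-colour (Cy3) Agilent arrays designed on build rn4 and read with the scanner software Feature Extraction (version 10.7.3.1 in the file headers). The authors deposited spot intensities on a linear scale, background-subtracted per the file headers, and spot flags. The deposited value table (intensities scaled per array by a rule not given in the sources used here; column medians 117 to 233, Spearman correlation with the scanner values 0.998 or more) served as an alternative.

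Flagged spots (non-uniform or population outliers) were set missing, 1377 control spots were left out, and spots of a probe were averaged. Values were log2 intensity minus the array's 75th percentile. Probes well above background on at least 4 arrays, with at least 2 values per group, were kept (25475 of 30367), and the brightest on average stood for a gene. Accessions were matched to RefSeq symbols (GRCr8): 17328 probes had a name. Unmatched genes were keyed by accession rather than by probe, a change made after a first look that moved the genes tested slightly. limma 3.58.1 (R 4.3.3) was fitted over 4 groups (15 residual degrees of freedom) and tested on simulated data. Each array's spot count is the same, and the number of arrays limits the precision. No spot was saturated.

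The members and lists were chosen with earlier results of these data known. Named genes were all members and the 5 genes with a RefSeq symbol most correlated with Tpsab1, Cpa3 and Kit. In each other list they were up to 4 genes past the threshold, with the smallest adjusted p in each direction. Mcpt1, Camp, Kitlg, Gata2 and the thymocyte markers given as well above background were named outside this rule. Alternatives were slide as a fixed or random block, a replicate block, other background correction, normalization, filters, probe choice and samples, and leaving out each array. The planned normexp correction used the median signal, because the scanner files hold no mean signal. Promoters are RefSeq's, 250 bases upstream; 7 of 8 members matched, with Mcpt1 besides.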

Additional observations from a re-analysis of the deposited data

Results flagged for a closer look

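In 40 groups of 4 or 5 arrays (a probe in a group), the array at one end stood apart from the rest by Dixon's criterion in 4, where chance gives about 1 in 20. Tpsab1 in saline replicate 2 was at -2.51, above the next saline array at -3.50. Cpa3 in 5 ml/kg replicate 1 was at -5.68, below the next at -3.20. Mcpt1 in the same array was at -4.22, below the next at -2.97. Ms4a2 in saline replicate 4 was at -7.31, below the next at -6.27, both dim values.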

How the results depend on the processing

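Limits: 4 or 5 arrays per group, slides that hold at most 2 groups, and dim probes for Ms4a2 and Fcer1a limit these results. In limma's fits no mast cell gene passed with slide as a fixed block.

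Genes called at 10 ml/kg against saline, against 5 and against 2 ml/kg (1436, 1799 and 2825) were 454, 273 and 278 with slide as a fixed block (and 1 for 5 against 2 ml/kg), 899, 667 and 746 with slide as a random block, 325, 286 and 334 with normexp, and 470, 788 and 1160 with only the groups compared in the fit. Against 5 ml/kg 1165 were called after quantile normalization and 924 without saline replicate 2 and 5 ml/kg replicate 1. Leaving out each array in turn gave 931 to 4695, 755 to 3124 and 1219 to 5324, the highest without saline replicate 5 and, for the last 2, without 10 ml/kg replicate 5; it gave 0 to 1 at 5 ml/kg against saline and 0 to 3 at 5 against 2 ml/kg. The cause was not tested.

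Mast cell genes called (1 in each of the 3 comparisons) were 0 against saline with the fixed block, the random block, normexp and only the groups compared, 0 against 5 ml/kg with the fixed block, and 0 against 2 ml/kg with the fixed block, the random block and normexp. Without saline replicate 2 and 5 ml/kg replicate 1 they were 3 against saline, where 5.9% of all genes were called. That alternative was chosen after seeing the data and from these genes' own levels. After quantile normalization they were 3 against 2 ml/kg, where 9.08% of all genes were called. Leave-one-out gave 0 to 1 against saline.

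The replicate numbers in the labels did not pair the arrays: 6 of 27 same-numbered pairs had correlated deviations over 0.1 (range -0.64 to 0.71), and 6 of 19 arrays correlated best with their own number. With the replicate block 1063 genes (4.69%) were called at 10 ml/kg against saline, 1120 (4.94%) against 5 ml/kg and 1671 (7.37%) against 2 ml/kg. Of the mast cell genes 1 was called in each of these comparisons, as without the block.

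Differences that changed sign were of genes that did not pass. With 10 ml/kg, Hdc against 2 ml/kg was 0.26 (fixed slide block), 0.13 (random block) and 0.38 (quantile). Fcer1a against 2 ml/kg was -0.17 with the mean of its probes and -0.47 with its other probe, and against saline -0.22 with its other probe. Without the 2 arrays named above Hdc and Fcer1a against 5 ml/kg were -0.13 and -0.26. Leave-one-out ranges were -0.15 to 0.18 (Hdc) and -0.26 to 0.60 (Fcer1a) against 5 ml/kg and -0.25 to 0.085 and -0.027 to 0.35 against 2 ml/kg.

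At 5 ml/kg against saline the fixed block gave Tpsb2 0.11, Cpa3 0.61, Fcer1a -0.15, Kit 0.065 and Mcpt1 0.044, and the random block gave Cpa3 0.37 and Fcer1a -0.033. Normexp gave Cpa3 0.25, quantile normalization Cpa3 0.16 and Mcpt1 0.041, the deposited table Ms4a2 -0.042, a floor on dim values Ms4a2 -0.52, the mean of probes Fcer1a -0.20 and its other probe -0.54. Without the 2 arrays Tpsab1 was 0.041, Cpa3 0.85 and Mcpt1 0.33. Leave-one-out gave Cpa3 -0.30 to 0.62, Fcer1a -0.20 to 0.67, Ms4a2 -0.21 to 0.49 and Mcpt1 -0.23 to 0.23.

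At 2 ml/kg against saline normexp gave Tpsab1 0.14, Tpsb2 0.21, Kit 0.024 and Mcpt1 0.061, and the floor gave Ms4a2 -0.18. Without the 2 arrays Tpsab1 was 0.11 and Tpsb2 0.033. Leave-one-out gave Tpsab1 -0.21 to 0.11 and Tpsb2 -0.46 to 0.033.

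At 5 against 2 ml/kg the fixed block gave Tpsb2 0.31, Cpa3 0.28, Cma1 0.10 and Kit 0.21, and the random block Cpa3 0.071, Cma1 0.017 and Kit 0.10. Quantile normalization gave Cma1 0.013, Hdc 0.16, Fcer1a 0.34, Ms4a2 0.29 and Kit 0.14, and Mcpt1 was -0.078 with normexp and -0.0026 in the deposited table. Without the 2 arrays Cpa3 was 0.39, Cma1 0.32, Hdc 0.062, Fcer1a 0.40 and Ms4a2 0.23. Leave-one-out gave Cpa3 -0.52 to 0.39, Cma1 -0.30 to 0.32, Hdc -0.25 to 0.062, Fcer1a -0.47 to 0.40, Ms4a2 -0.47 to 0.23, Kit -0.18 to 0.029 and Mcpt1 -0.076 to 0.38.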
